A study of Danio rerio with 2 samples.

Results

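The gene rnpc3 of zebrafish (Danio rerio), the gene mutated in caliban (clbn) as far as background knowledge goes, was described here through every intron listed under its Refseq ID, NM_001039930. The members were taken by this ID, without use of any measured value. They are 4 of the 55660 introns in the deposited table, and they were read in 1 library of homozygous wildtype larvae and 1 library of larvae homozygous for clbn s841. Each library came from RNA of about 60 genotyped whole larvae at 108 hours after fertilization, pooled before library preparation, and all larvae of both groups had been in PTU, which blocks pigment, from 24 hours on. The libraries held 28309779 reads (wildtype) and 25718058 reads (mutant). With 1 library per genotype there is no replicate error, so every test compares these libraries and not the genotypes, and intervals are 95% intervals that cover counting error only.

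Most introns are cut out by the major spliceosome, and a few, the minor or U12-type introns, by a second machine, the minor spliceosome. In it the U11 and U12 particles bind the ends of the intron as 1 joined complex. The rnpc3 protein has RNA recognition motifs and holds this complex together, since it binds U12 RNA on one side and the U11 protein encoded by pdcd7 on the other. In mammals, transcripts of this gene and of snrnp48 carry conserved elements that U11 binds and that steer how those transcripts are spliced. The caliban mutant is known for underdeveloped digestive organs.

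Reads in the exons of rnpc3 were fewer in the mutant library. The deposited gene value, which behaves as reads per kb of exon scaled by the library total, fell from 5.70 to 2.503. These values correspond to 273 and 109 reads over 1693 bp of exon, the smallest whole numbers that give them. Per kb of exon that is 161 reads (143 to 182) in wildtype and 64.4 reads (52.9 to 77.7) in the mutant, so the intervals lie apart. These levels per kb are not scaled by the library total. Scaled by the library total, the ratio of mutant over wildtype was 0.440 (0.349 to 0.551), a log2 ratio of -1.18 with a pseudocount of 0.5. Fisher's exact test (two-sided, Benjamini-Hochberg over 10175 genes with at least 20 reads) gave an adjusted p of 8.7e-13. With a threshold of 0.05 and at least 2-fold, 1.02% of all tested genes were called lower, and rnpc3 was among them. Fewer cells that use the gene and less of its RNA per cell cannot be told apart in whole larvae.

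In level, rnpc3 stood at percentile 38.3 of all tested genes in wildtype and at percentile 12.2 in the mutant. Its ratio ranked 74 from the lowest. Among 4097 genes with 136.5 to 546 wildtype reads, which is 0.5 to 2 times the reads of rnpc3, 22 were at least 2-fold lower. At or below the ratio of rnpc3 lay 16. The 4097 genes include rnpc3 itself, which is in both counts. On the log2 scale the median of these genes was 0.06 and their 5th percentile -0.42, both above the -1.18 of rnpc3.

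The 4 introns lie on the plus strand of chromosome 24 (Zv9) within 26957 bp, and are numbered here in the order of transcription. Intron 1 is at chr24:29862440-29867911 (5472 bp), intron 2 at chr24:29872057-29875243 (3187 bp), intron 3 at chr24:29885743-29885926 (184 bp) and intron 4 at chr24:29886000-29889396 (3397 bp). Only 73 bp separate introns 3 and 4, whereas 4145 bp and 10499 bp lie between the other neighbouring pairs. The table lists introns with at least 1 read in both libraries, so the numbers are not those of the whole gene model, and other introns of rnpc3 are not analysed here. No intron listed under another ID overlaps the span. Unique sequence, on which levels rest, makes up 61.6% of intron 1, 73.4% of intron 2, 100% of intron 3 and 78.3% of intron 4.

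Intron 1 had 9 reads in wildtype and 32 in the mutant. Per unique kb this was 2.67 reads (1.22 to 5.07) and 9.49 reads (6.49 to 13.4), and the intervals do not overlap. Intron 2 had 5 and 3 reads, and a difference was not detectable at this depth. Intron 3 had 1 read in wildtype and 8 in the mutant over its 184 bp, or 5.43 (0.138 to 30.3) and 43.5 (18.8 to 85.7) reads per kb. Intron 4 had 66 and 60 reads, or 24.8 (19.2 to 31.6) and 22.6 (17.2 to 29.0) reads per unique kb. None of these levels is scaled by the library total, and the wildtype library is the larger. Intron 1 was thus higher in the mutant library and intron 4 about level. The wildtype level of intron 3 rests on 1 read and its intervals overlap, which does not settle whether its levels differ.

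**Figure D1:**
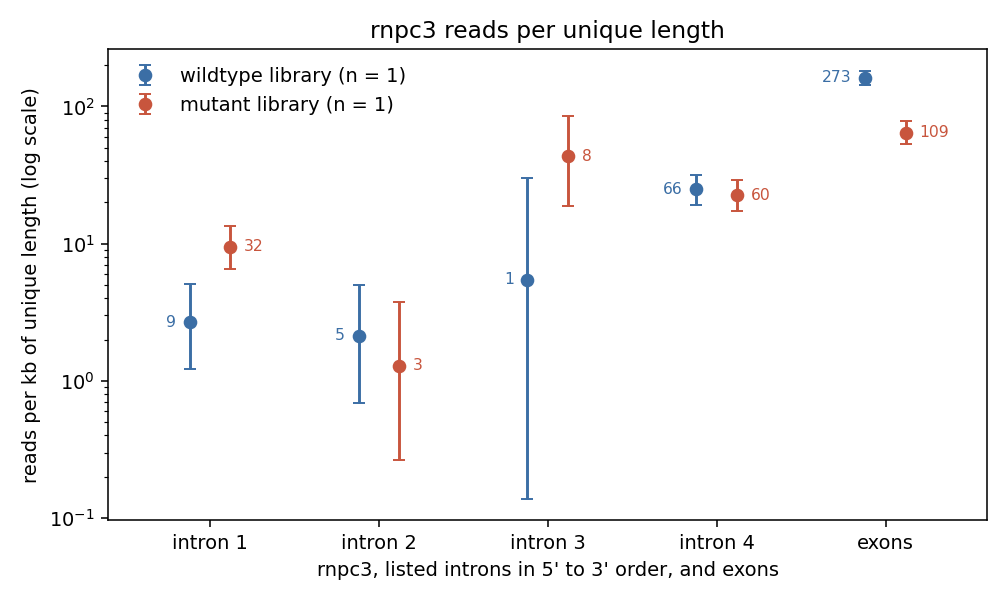
Reads per kb of unique length (log axis) in the 4 listed introns of rnpc3, in order of transcription, and in its exons, for the wildtype library (blue) and the mutant library (red). Levels are not scaled by the library total. Bars are exact 95% Poisson intervals and the number beside each point is its read count: exons fell from 273 to 109 reads while intron 1 went from 9 to 32 and intron 4 from 66 to 60.

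Among the 4 listed introns, intron 4 was the main source of reads in both libraries. It held 81.5% of the reads of the 4 introns in wildtype and 58.3% in the mutant, against 11.1% and 31.1% for intron 1. Per unique length, intron 4 stood 9.29-fold (4.61 to 21.2) above intron 1 in wildtype. In the mutant library it stood 2.38-fold (1.52 to 3.77) above it. Compared with intron 3, on the other side of the 73 bp stretch, the level of intron 4 was 0.519 times as high (0.247 to 1.26) in the mutant library, and in wildtype the ratio of 4.57 (0.791 to 183) rests on 1 read.

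The authors' retention coefficient, the level of an intron divided by that of the gene's exons, was larger in the mutant library for all 4 introns. The exon level of rnpc3 was lower there, so a coefficient can rise without more intronic reads. For intron 1 the coefficient was 0.0166 in wildtype and 0.147 in the mutant. That moved the intron from percentile 35.9 to percentile 83.7 of all introns with a gene value. Intron 2 had coefficients of 0.0133 and 0.0199, although its reads were 5 in wildtype and 3 in the mutant. Intron 3 had 0.0337 and 0.675, the latter at percentile 97.7, from 1 read in wildtype and 8 in the mutant. Its 184 bp were thus read in the mutant library at 67.5% of the density of the exons. That share is loose, since 43.5 (18.8 to 85.7) reads per kb stand against 64.4 (52.9 to 77.7) in the exons. Intron 4 had 0.154 and 0.350, at percentiles 84.5 and 93.6. Over all introns with a gene value the medians were 0.0276 and 0.0286.

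Relative to gene reads, both introns with at least 20 reads were called higher. The ratio of mutant over wildtype was 8.91 for intron 1 (3.97 to 21.8 with the error of gene reads counted in, adjusted p = 9.8e-08, Fisher's exact test over 20223 introns). It was 2.28 for intron 4 (1.47 to 3.52, adjusted p = 0.0048). By this rule 2.92% of all tested introns were called higher. Introns 2 and 3 were below the minimum and had ratios of 1.503 (0.229 to 7.87) and 20.04 (2.61 to 892). The interval of intron 2 includes 1, and that of intron 3 does not.

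Scaled by the library total, the same reads gave another picture. Intron 1 stayed higher at a ratio of 3.91 (1.83 to 9.32, adjusted p = 0.0027, Fisher's exact test), where 3.89% of all tested introns were called higher. Intron 4 was at 1.00 (0.694 to 1.44) and was not called. Intron 2 had 0.660 (0.103 to 3.39) and intron 3 had 8.81 (1.18 to 391). The call of intron 4 relative to gene reads therefore comes with lower exonic reads and not with more intronic reads. Intron 1 had more reads by either scale. The intervals of intron 3 also lie above 1 on both scales, but it had 1 wildtype read and was not tested.

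**Figure D2:**
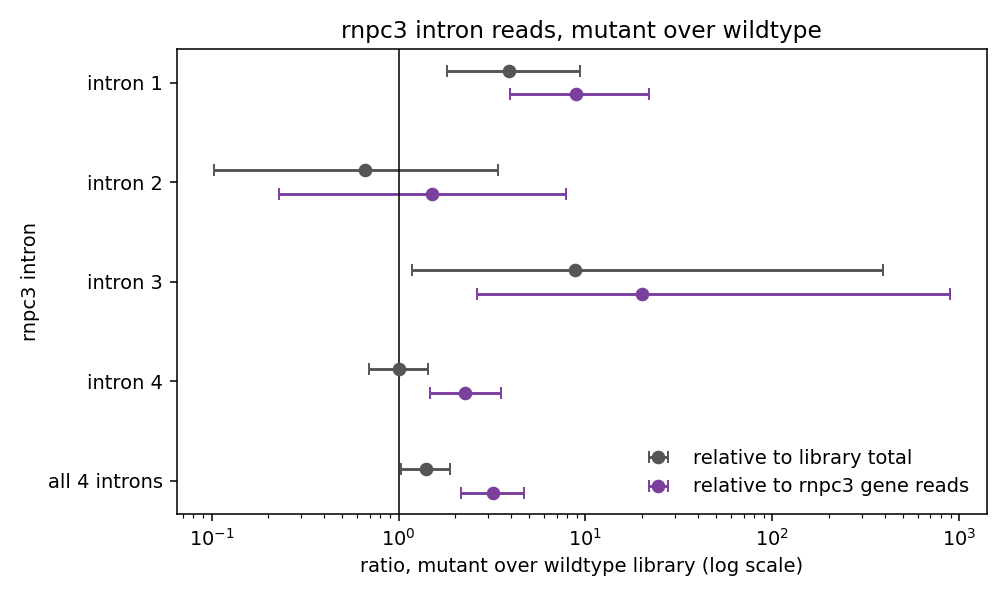
Ratio of mutant over wildtype reads (log axis) for each listed intron of rnpc3 and for their sum, scaled by the library total (grey) or by the reads in the exons of rnpc3 (purple), with exact 95% intervals. The vertical line marks a ratio of 1: intron 1 lies right of it on both scales (3.91 and 8.91), and intron 4 lies on it when scaled by the library total (1.00).

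The introns were also compared with one another, without gene reads. Each intron was set against all other listed introns of the same ID, over 19611 introns. The share of intron 1 was higher in the mutant library (odds ratio 3.58, 1.53 to 9.17, adjusted p = 0.03, Fisher's exact test), and that of intron 4 was lower (0.319, 0.149 to 0.656, adjusted p = 0.022). Of all tested introns, 2.09% were called higher and 1.92% lower in this comparison. These tests are 2 views of the same reads, since introns 1 and 4 hold most of them. Both calls end when introns of any depth are tested (adjusted p = 0.07 and 0.051), and that of intron 1 also ends when intron 4 is left out of its comparison (log2 ratio 0.95, adjusted p = 0.71).

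Summed over the 4 introns, rnpc3 had 81 intronic reads in wildtype and 103 in the mutant. For every 100 gene reads the wildtype library had 29.7 intronic reads and the mutant library 94.5, a ratio of 3.18 (2.17 to 4.67). Among 8324 genes with at least 20 intronic reads this sum ranked 88 from the highest. Scaled by the library total the sum had a ratio of 1.40 (1.04 to 1.90), at percentile 82.0 of these genes, where it stood at percentile 98.9 relative to gene reads. Without intron 1 the counts were 72 and 71 reads, with ratios of 2.47 (1.63 to 3.74) to gene reads and 1.09 (0.771 to 1.53) to the library total. Without intron 4 they were 15 and 43 reads, a ratio of 3.16 (1.72 to 6.11) to the library total.

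The gene rnpc3 was not alone in having a lower gene level together with an intron that gained reads. Of 111 genes at least 2-fold lower, 71 had an intron with at least 20 reads. In 5 of them an intron was called higher when scaled by the library total, and these included rnpc3. The others were selenoe, a fish selenoprotein gene (1591 and 326 gene reads), hal, which codes for the histidine-degrading enzyme histidase (890 and 374), mocs3, a gene of molybdenum cofactor synthesis (53 and 22), and NM_199877, which has no symbol (501 and 225). They were named after their values were seen. Of 6728 other genes with an intron of that depth, 687 had one called higher, so the shares were 7.04% of the lower genes and 10.2% of the others. Relative to gene reads the order was the reverse, with 9 of the 71 lower genes (12.7%) and 508 of the others (7.55%). The lower genes were picked by their gene reads, which are also the divisor here, so this order is partly built in.

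The other measured genes of the minor spliceosome had ratios within 2-fold, as had most tested genes. Of 14 genes on the list, 10 had a gene value, and 1 of the 10, rnpc3, was at least 2-fold lower, beside 1.09% of all tested genes. No member was 2-fold higher, beside 0.835% of all tested genes. With shares this low, 10 genes are too few to read anything from members that stay within 2-fold. The median of the list was -0.05 on the log2 scale with rnpc3 and 0.03 without it, against 0.05 for all tested genes. The other 9 members ranged from -0.41 to 0.52. Next lowest was zcrb1, which codes for a U11/U12 protein, with 164 and 112 reads and a ratio of 0.752 (0.586 to 0.962, adjusted p = 0.064, Fisher's exact test, not called). The gene pdcd7, whose protein binds that of rnpc3, has no value in the table, and neither have zrsr2, rbm41 and cenatac.

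Genes for proteins of the U11 particle were close to level. For snrnp25 there were 57 and 61 reads, a ratio of 1.18 (0.807 to 1.72). For snrnp35 there were 66 and 61 reads, a ratio of 1.02 (0.706 to 1.46). The gene snrnp48, whose protein contacts the 5′ splice site of minor introns, had 147 and 164 reads and a ratio of 1.23 (0.977 to 1.54). Their intervals include 1, and differences within them are not detectable at this depth. The U11/U12 protein gene zmat5 had 191 and 159 reads, a ratio of 0.916 (0.738 to 1.14).

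Further factors tied to minor splicing also had ratios within 2-fold. The gene scnm1, whose protein acts in the minor spliceosome, had 29 and 38 reads and the highest ratio of the list at 1.44 (0.866 to 2.42). The partner genes rbm48 and armc7 had ratios of 0.885 (0.748 to 1.05) and 1.31 (0.950 to 1.82). For txnl4b the ratio was 0.895 (0.708 to 1.13). All of these intervals include 1, and that of scnm1 reaches past 2-fold.

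**Figure D3:**
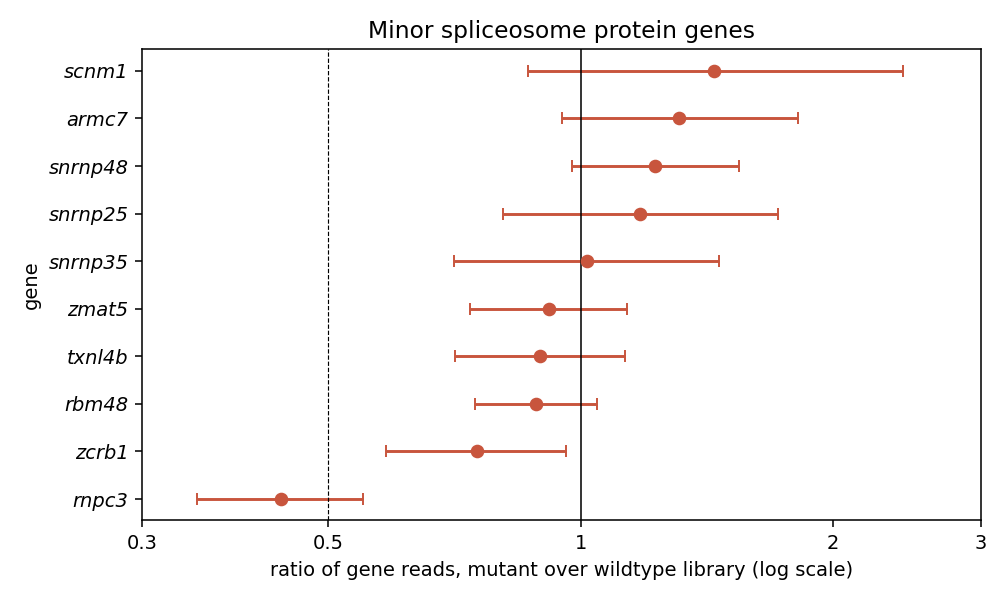
Ratio of gene reads, mutant over wildtype library (log axis, scaled by the library total), for the 10 minor spliceosome genes with a value, with exact 95% intervals that cover counting error only. The solid line marks 1 and the dashed line a ratio of 0.5: rnpc3 lies at 0.440 and the next gene, zcrb1, at 0.752.

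Most introns of those other genes had too few reads to be tested. The 9 genes had 24 listed introns, whose summed reads were 177 and 117 beside 1210 and 1072 gene reads, an odds ratio of 0.746 (0.577 to 0.962). That interval treats the reads of all 9 genes as 1 pool and covers no spread between genes. In raw counts, more reads in the mutant library were found in 9 introns, fewer in 11 and as many in 4. These counts take no account of the larger wildtype library. With library size allowed for, the 4 introns with equal counts were each higher in the mutant library, at 1.10. How all listed introns split was not counted, so nothing is read from these numbers. Only 3 introns had at least 20 reads. None of these was called higher, where 2.92% of all tested introns were, and 3 introns are too few to read anything from that. In the lower direction 1 of the 3 was called, where 1.46% of all tested introns were called lower. It lies in rbm48 at chr19:41140758-41142881 and had 27 and 2 reads (ratio 0.0921, 0.0105 to 0.373, adjusted p = 0.0012, Fisher's exact test). Without this intron, which was left out after its call was seen, the odds ratio of the remaining introns was 0.865 (0.663 to 1.13).

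By gene, the odds ratio of summed introns to gene reads was lowest in rbm48, at 0.343 (0.133 to 0.787). In snrnp48 it was 0.475 (0.242 to 0.909), from 34 and 18 reads in 5 introns. In zcrb1 57 and 27 reads in 6 introns gave 0.694 (0.397 to 1.19). Of this list outside rnpc3, txnl4b alone had an interval above 1, with 5 and 14 reads in its 1 listed intron (3.43, 1.13 to 12.5). That intron was below the minimum of 20 reads and was not tested.

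Genes of proteins that both spliceosomes use, or that belong to the major one, were compared likewise. All 4 measured SF3b genes, whose proteins sit in the U12 and the U2 particle, were above 0 on the log2 scale, as were 59.1% of all tested genes, from sf3b6 at a ratio of 1.16 (0.906 to 1.49) to sf3b5 at 1.49 (1.19 to 1.87). Those of the U1 and U2 particles and their partners ran from sf3a2 at 1.03 (0.904 to 1.17) to snrpa1 at 1.74 (1.44 to 2.11). All 10 of them were above 0 when scaled by the library total, and 8 with TMM or median ratio scaling, which puts sf3a1 and sf3a2 below 0. Of all tested genes, 50.2% were above 0 with TMM scaling and 50.0% with median ratio scaling. The 5 measured Sm protein genes, whose proteins form the ring of both kinds of particle, lay between snrpb at 1.37 (1.27 to 1.48) and snrpd1 at 1.59 (1.38 to 1.83). None of these 19 genes was 2-fold higher, beside 0.835% of all tested genes. That share is so low that 19 genes are too few to read anything from this. The list medians were 0.33 for SF3b, 0.23 for U1 and U2 and 0.59 for Sm proteins, beside 0.05 for all tested genes.

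**Figure D4:**
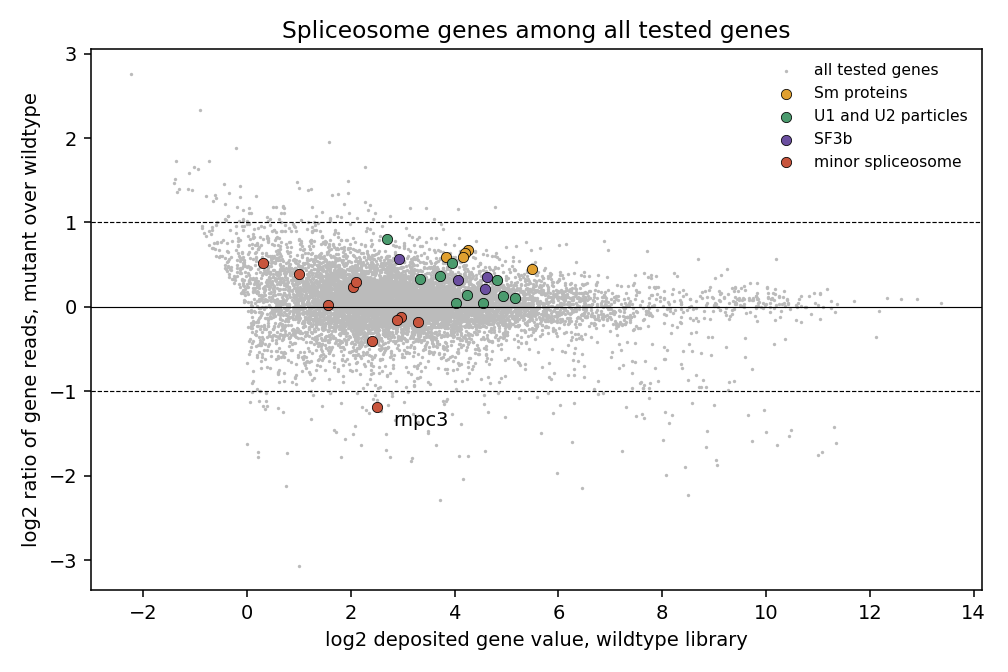
Log2 ratio of gene reads, mutant over wildtype, against the log2 deposited gene value in wildtype for 10175 tested genes (grey), with the spliceosome lists in colour. Dashed lines mark 2-fold: rnpc3 at -1.18 is the 1 coloured gene beyond them, and the Sm, SF3b and U1 and U2 genes lie above 0, sf3a1 and sf3a2 so little that TMM or median ratio scaling puts them below it.

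Among genes with a gene value, the 3 nearest on each side of rnpc3 on chromosome 24 were not 2-fold apart between the libraries. Of all tested genes 1.09% were at least 2-fold lower and 0.835% at least 2-fold higher. The neighbours are too few to read anything from that. The nearest with a gene value, col11a1a, a cartilage collagen gene on the minus strand, begins its listed introns 46973 bp from those of rnpc3. It had 11002 and 11240 reads, a ratio of 1.12 (1.10 to 1.15). Beyond it on that side lie olfm3a at 1.17 (0.989 to 1.38) and abca4a at 1.796 (1.18 to 2.76, 38 and 62 reads). On the other side, more than 1 Mb away, plppr5b was at 0.617 (0.458 to 0.826, 132 and 74 reads), cpne3 at 1.11 (0.983 to 1.25) and fam168b at 0.880 (0.826 to 0.936). In the gene order of GRCz12tu, ntng1a, prmt6 and vav3 come next to rnpc3 on that side, and they are not among the genes used. The intervals of abca4a and plppr5b reach past 2-fold.

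The neighbour col11a1a shows how introns of a deeply read gene spread. Of its 64 listed introns, 58 were tested, and 2 were called higher and 1 lower relative to gene reads. Over all tested introns 2.92% were called higher and 1.46% lower. The log2 ratios of its tested introns ran from -2.19 to 1.17, with a median of -0.03. The larger of its ratios among called introns, 2.26 (1.60 to 3.23, 49 and 113 reads, adjusted p = 8.4e-05, Fisher's exact test), was found in the intron at chr24:29779726-29800346. Together with the 3 listed introns before it in transcription, which are the ones nearest to rnpc3, it went from 99 to 203 reads. These 4 introns were singled out after their values were seen. Intron 1 of rnpc3, at 3.10 on the log2 scale relative to gene reads, lay above the range of the tested introns of col11a1a. Gene reads were lower in the mutant library for rnpc3 and not for col11a1a. Scaled by the library total, intron 1 of rnpc3 was at 1.91, or a ratio of 3.91 (1.83 to 9.32) without a pseudocount. On that scale the highest tested intron of col11a1a had a ratio of 2.54 (1.80 to 3.63), and the intervals overlap. More introns of col11a1a were called higher on that scale than relative to gene reads.

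In the plane of gene values in both libraries, the 5 genes nearest to rnpc3 were pus7l, napga, nceh1b.1, camk1gb and ankrd39, at distances of 0.04 to 0.21 in log2 units. Likeness here rests on only 2 libraries. Ratios close to that of rnpc3 follow from the way these genes were picked and are no finding about them. The gene nceh1b.1 had nearly the same counts, 272 and 105, and a ratio of 0.425 (0.336 to 0.534). For napga 169 and 72 gene reads gave 0.469 (0.351 to 0.621). Relative to gene reads, 1 of its 2 tested introns was called higher, where 2.92% of all tested introns were. The gene napga was not among the lower genes with an intron called higher by the library total. The remaining 4 genes had no intron with at least 20 reads, so their introns could not be set beside those of rnpc3.

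Markers of larval tissues were read in both libraries, as the label of whole larvae implies. Of 22 fixed markers of muscle, lens, retina, pancreas, liver, skin, blood, neurons and intestine, 20 had a gene value, from 5.10 to 10667 in wildtype. A fall of 2-fold or more in the mutant library was seen in 5 of them, beside 1.09% of all tested genes. They were the lens genes crybb1 and crygn1 and the pancreatic enzyme genes amy2a, prss1 and cel.1. Of the 20 markers, 13 were below 0 on the log2 scale and 7 above, where 59.1% of all tested genes were above 0. Above 0 were actc1b of muscle, krt5 and icn of skin, hbae3 of blood, elavl3 of neurons and both liver genes. The liver genes fabp10a and apoa1a had ratios of 1.04 (0.999 to 1.09) and 1.16 (1.14 to 1.18). Among the lower markers short of 2-fold were the intestinal genes slc15a1b at a ratio of 0.556 (0.517 to 0.598) and fabp2 at 0.738 (0.710 to 0.767). The retinal gene gnat2 was at 0.751 (0.728 to 0.775). The part of any marker tissue in the lower level of rnpc3 was not tested.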

How the data were processed

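Poly(A) RNA of pooled larvae was read on SOLiD, per the labels' protocols, and Zv9 is the build in the submitters' processing notes. No source used here gives the aligner, the counting tool, its use of strand or its rule for reads with several matches, so sense and antisense reads cannot be told apart. For each intron the authors deposited whole read counts and RPuKM, an RPKM over unique intron length, per the file headers. Deposited log2 columns and the authors' ratio (fold change) columns were not used. Gene values carry no unit in the header. Whole reads over a whole exonic length, within 1e-06 bp, were found for all 10223 of them, and the smallest solution was used. The true reads may be a whole multiple of it, and intervals would then be narrower. Genes listed have a value of at least 1.00 in one library or the other.

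Tests and intervals used scipy 1.17.1, and scaling factors came from edgeR 4.0.16 (TMM) and DESeq2 1.42.0 (median ratio). Tests were tried first on simulated Poisson counts. These held no spread between libraries, and their planted changes were all larger than that of rnpc3 gene reads, so they vouch for no call made here. Folds beside intervals and log2 ratios of summed introns have no pseudocount, and other log2 ratios have 0.5. Named genes were rnpc3, the minor spliceosome list, the highest and lowest member of each other spliceosome list, the 3 nearest genes on each side and the 5 nearest in level. Tissue markers, and lower genes with a higher intron, were named after their values were seen, since they passed the fold or the call. Markers of intestine and retina, and those above 0, were named after their values were seen too, although they fell short of 2-fold. Members and lists were chosen with earlier results of these data known. Symbols came from a Refseq table of GRCz12tu (names, and the gene order beside rnpc3, only), which matched 9797 IDs (95.8%). Introns without a gene value (1893) were left out.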

Additional observations from a re-analysis of the deposited data

How the results depend on the processing

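No paired analysis was possible because each genotype has 1 library. For the same reason no replicate could be left out. The lower gene reads of rnpc3 held under all scalings tried, with a pseudocount of 5 and with gene reads 2 times the smallest solution (chosen after seeing the data), at log2 ratios from -1.24 to -1.15. TMM and median ratio scaling shift the median of all genes by -0.05, and with it sf3a1 and sf3a2 to below 0 (a check chosen after seeing the data). Intron 1 remained higher relative to gene reads under each alternative that tested it. Scaled by the library total, intron 4 came to 0.0021 on the log2 scale without a call, which leaves 1 intron of rnpc3 called higher, and the summed introns had 0.49 in place of 1.67. With a minimum of 50 reads intron 1 drops out and 1 intron was called. With a minimum of 5 reads or none, intron 3 was called higher at 3.82 (adjusted p = 0.023 and 0.026, Fisher's exact test) on 1 wildtype read, so 3 introns were called. Against the other introns of the gene, intron 1 went from 1.79 to 0.95 without intron 4 in the comparison and lost its call. Without a minimum it stayed at 1.79 and intron 4 at -1.63, both without a call. Under either setting 0 introns were called higher. The minor spliceosome list kept 1 member at least 2-fold lower, and 0 of 6 neighbours were 2-fold apart with median ratio scaling too. Depth limits introns 2 and 3, with 8 and 9 reads over both libraries.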
